A study of Mus musculus with 16 samples.

Results

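Mouse embryonic stem cells (ESCs) kept in leukaemia inhibitory factor (LIF) were compared between lines that lack the coiled coil of MBD3 and lines that retain it. The samples are the 8 arrays labelled LIF_plus, of 16 arrays in the series, taken by their titles. The 3 lacking lines are Empty, deltaCC and deltaMBD&CC, and the 5 retaining lines are EBRTcH3, Mbd3a, Mbd3b, Mbd3c and deltaMBD. EBRTcH3, a male line of strain 129SV, served as wild type and carries its own MBD3. The 7 other lines were made from it, are null for MBD3 (Mbd3abc-KO) and hold a stably introduced vector. Mbd3a, Mbd3b and Mbd3c received the MBD3 isoform of that name. The deltaMBD line received MBD3a without its methyl-CpG-binding domain, deltaCC received MBD3a without its coiled coil, deltaMBD&CC received MBD3a without either, and Empty received a vector with no insert. The same 8 lines after 12 days without LIF, 3 lacking and 5 retaining, gave the 8 other arrays and serve as a comparison. Each line was measured on 1 array per condition. The lines are therefore the replicates of a class, and the p-values rest on how lines of a class, which also differ in construct, spread. The sources used here do not give the promoter of the vectors or say whether a line is 1 clone or a pool.

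MBD3 is a subunit of NuRD, a complex that joins a nucleosome remodelling ATPase to histone deacetylases. The coiled coil of MBD2 and MBD3 pairs with the GATAD2 subunits, through which the remodelling ATPase is held in the complex. In ESCs, MBD3 is known for being needed to leave the self-renewing state when LIF, which acts through the transcription factor STAT3, is withdrawn.

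Values are log2 signals of total RNA, so a difference of 1 on this scale is 2-fold. Differences are lacking minus retaining lines, with the standard error (SE) of the limma fit. Passing means an adjusted p below 0.05, with adjustment over every gene tested in the fit, and "rose" and "fell" are used of the lacking lines. On the 8 arrays with LIF the array medians ran from 4.73 to 4.85 and the correlation between arrays over genes from 0.973 to 0.995. By title number the arrays form 2 runs, whose meaning the sources used here do not give. The second run holds deltaMBD, deltaCC and deltaMBD&CC. Within the first run 679 genes passed, and within the second 0 passed by limma (3240 had an unadjusted p under 0.05).

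The targeted gene Mbd3 was lowest in Empty. Its log2 signal was 7.00 in Empty, 9.12 in deltaCC and 8.48 in deltaMBD&CC, against 9.10 in EBRTcH3, 8.96 in deltaMBD, 9.09 in Mbd3a, 9.15 in Mbd3b and 8.65 in Mbd3c. The classes overlapped, since deltaCC lay among the retaining lines, and the difference did not pass (-0.79 ± 0.36 SE, adjusted p = 0.177, limma). The classes are defined by the construct and not by the level of Mbd3 RNA. The exons that its probe set reads were not known.

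With LIF, 3233 of 22872 genes tested passed (14.1%), 1750 higher (7.65%) and 1483 lower (6.48%) in the lacking lines. These shares are the background for every list count with LIF below. The classes did not overlap in 4630 of the genes tested (20.2%) and in 2977 of the 3233 that passed. Most differences were small. The median absolute difference was 0.60 among genes that passed and 0.17 among all genes tested, and 502 genes that passed differed at least 2-fold (278 higher, 224 lower). With each array centred on its median, 1310 genes were higher and 1916 lower, so the balance of rises and falls depends on the scaling. The first principal component of the 8 arrays (49.7% of the variance) ran from -31.0 in Mbd3b to -7.9 in deltaMBD among the retaining lines. It was 19.7 in Empty, 37.3 in deltaCC and 42.9 in deltaMBD&CC. The second component (17.3%) was highest in deltaMBD, at 33.6.

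Of the lacking lines, Empty lay closest to the retaining lines. Empty shares the first title run with every retaining line but deltaMBD, which is in the second run with deltaCC and deltaMBD&CC. The order of lines by construct therefore cannot be told apart from the run. Among the 502 genes past 2-fold, the lacking line nearest to the retaining lines was Empty in 286, deltaCC in 118 and deltaMBD&CC in 98. The retaining line nearest to the lacking lines was deltaMBD in 185, EBRTcH3 in 136, Mbd3a in 81, Mbd3c in 74 and Mbd3b in 26. Pairs of matched lines, 1 array against 1 and with no test, showed differences in both directions. The pair of Empty and EBRTcH3 is matched only loosely. EBRTcH3 carries its own MBD3 and Empty is null for MBD3 with an empty vector, so this pair differs in more than the coiled coil. Over all genes tested, deltaCC differed from Mbd3a at least 2-fold in 396 genes upward and 386 downward, deltaMBD&CC from deltaMBD in 417 and 290, and Empty from EBRTcH3 in 259 and 369. All 3 pairs had the same sign in 501 of the 502 genes. These genes were chosen by their class difference on the same arrays, and where the classes do not overlap the signs are fixed. The agreement therefore describes the choice and is no separate evidence. Leaving out deltaCC left 1779 genes that passed and leaving out deltaMBD&CC 1852, while leaving out any 1 of the other lines gave 2214 to 3866.

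Both classes carried the defining transcripts of ESCs at high signal. Pou5f1, the central pluripotency factor, read 12.24 in Empty, 12.38 in deltaCC and 12.54 in deltaMBD&CC, against 12.50 in EBRTcH3, 12.56 in deltaMBD, 12.48 in Mbd3a, 12.43 in Mbd3b and 12.29 in Mbd3c. The ranges overlapped and the difference did not pass (-0.07 ± 0.11 SE). Sox2, the partner of Pou5f1, differed by -0.01 ± 0.10 SE, Klf4, a STAT3 target, by 0.07 ± 0.16 SE, the orphan receptor gene Esrrb by -0.15 ± 0.10 SE and the ESC marker Zfp42 by -0.14 ± 0.10 SE, and none of these 4 passed.

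Nanog, a homeobox factor that sustains self-renewal, was at the edge of the threshold. It read 11.04 in Empty, 11.06 in deltaCC and 11.44 in deltaMBD&CC, against 11.88 in EBRTcH3, 11.89 in deltaMBD, 11.79 in Mbd3a, 11.51 in Mbd3b and 11.37 in Mbd3c. The classes overlapped at deltaMBD&CC and Mbd3c, and the difference was -0.51 ± 0.15 SE (adjusted p = 0.0453). It did not pass without EBRTcH3 (-0.46), Mbd3a (-0.48), Mbd3b (-0.55), Empty (-0.44), deltaMBD (-0.46) or deltaCC (-0.45), or with no filter (-0.51). Of 15 core pluripotency genes 4 fell (1 without deltaCC, 2 without Mbd3a or Empty) and 2 rose (0 without Mbd3a, Mbd3b, Mbd3c, deltaCC or deltaMBD&CC, 1 without Empty or deltaMBD), but 0 rose when arrays were quantile normalized again or centred on their medians. Gdf3, a TGF-beta family ligand gene, was among those that fell (-0.53 ± 0.13 SE) and did not pass without Mbd3a (-0.51), Empty (-0.51) or deltaCC (-0.42), over all 16 arrays (-0.53), or with the title run as covariate (-0.52). The chromatin factor gene Utf1, with overlapping classes, differed by 0.53 ± 0.16 SE and did not pass without Mbd3a (0.54), Mbd3b (0.49), Mbd3c (0.47), deltaCC (0.51) or deltaMBD&CC (0.41), with no filter (0.53), with quantile normalization (0.49), with centred arrays (0.45), with the title run as covariate (0.41), or with the matched constructs as block (0.38).

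In the naive pluripotency list 2 of 18 genes fell and 0 rose, against 6.48% lower and 7.65% higher among all genes tested. Nr0b1, an orphan nuclear receptor gene of the ESC network, read 10.51 in Empty, 10.34 in deltaCC and 10.57 in deltaMBD&CC, against 12.07 in EBRTcH3, 11.68 in deltaMBD, 12.18 in Mbd3a, 11.78 in Mbd3b and 11.52 in Mbd3c. All 5 retaining lines lay above all 3 lacking lines, and the fall was 2.59-fold (-1.37 ± 0.15 SE, adjusted p = 0.000255). Nr5a2, a nuclear receptor gene whose product can act on Pou5f1, ran from 9.69 to 9.84 in the retaining lines and from 9.23 to 9.32 in the lacking lines (-0.50 ± 0.09 SE, adjusted p = 0.00418). Prdm14, which restrains differentiation and DNA methylation, and the T-box gene Tbx3 did not pass (-0.41 ± 0.21 SE and 0.48 ± 0.17 SE).

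After 12 days without LIF the naive list leaned the other way. In that condition 10 of the 18 genes were higher in the lacking lines and 1 lower, against 8.55% higher and 12.4% lower among all genes tested. Nr0b1 differed there by 0.78, Esrrb by 1.02 and Klf4 by 0.77. The change of the class difference from LIF to no LIF was tested on the difference of the 2 arrays of each line, so it shares the arrays with LIF. It passed in 2759 genes (12.1%), 953 with a change above 0 and 1806 below, or 1364 and 1592 when arrays were quantile normalized again. The count was 1353 without deltaCC and 1369 without deltaMBD&CC. The change was 2.16 for Nr0b1, 1.18 for Esrrb, 0.85 for Nanog and 0.70 for Klf4.

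**Figure D1:**
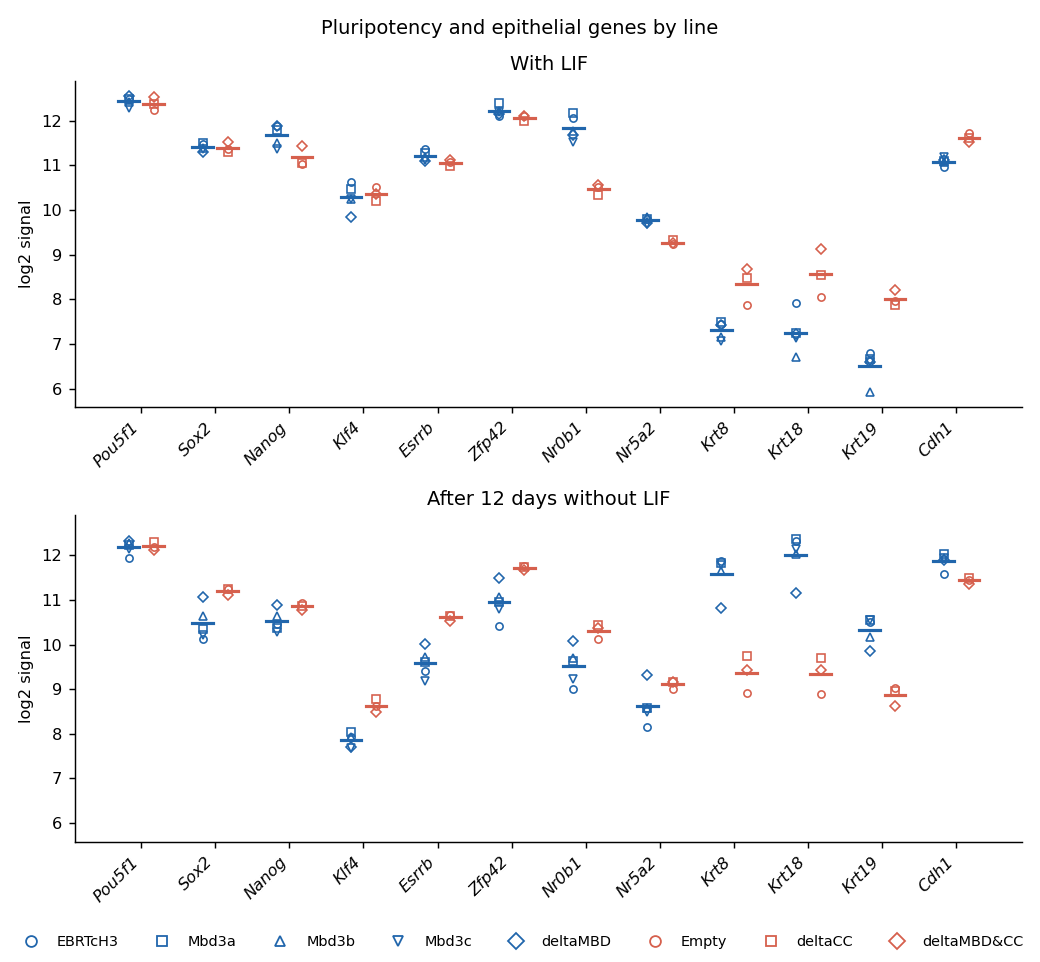
Log2 signal (vertical axis) of pluripotency genes and, at the right, the epithelial genes Krt8, Krt18, Krt19 and Cdh1 (horizontal axis), with LIF above and after 12 days without LIF below. Blue symbols are the 5 retaining lines, red symbols the 3 lacking lines, 1 symbol per line as in the key, and bars are class means. With LIF the classes overlap in Pou5f1, Sox2 and Klf4 and stand apart in Nr0b1 (10.34 to 10.57 against 11.52 to 12.18). The 3 keratin genes are higher in the lacking lines with LIF and lower without it.

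In the LIF and STAT3 pathway, of 18 genes tested 3 fell (5 without Empty or deltaMBD) and 1 rose. The shares over all genes tested were 6.48% lower and 7.65% higher. The receptor genes Lifr (-0.52) and Il6st (-0.22), the kinase gene Jak1 (-0.45) and Stat3 (-0.24) did not pass. The feedback inhibitor gene Socs2 read 10.55 in Empty, 10.42 in deltaCC and 10.44 in deltaMBD&CC, against 11.35 in EBRTcH3, 11.02 in deltaMBD, 11.17 in Mbd3a, 11.24 in Mbd3b and 11.24 in Mbd3c. With no overlap, it fell 1.66-fold (-0.73 ± 0.10 SE, adjusted p = 0.000971). Ier3, an immediate early gene, rose 2.17-fold (1.12 ± 0.17 SE), from 5.17 to 5.74 in the retaining lines against 6.25 to 6.88 in the lacking lines. Without LIF it was lower in the lacking lines (-0.86), a change of -1.97 (adjusted p = 0.00185).

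Predicted genes, small RNAs and receptor families were counted but not named, so the largest rises and falls described here are those among the other genes. The rises included genes of the germ line and early embryo. Pramel14, of the PRAME family of leucine-rich repeat proteins, read 9.74 in Empty, 9.97 in deltaCC and 10.14 in deltaMBD&CC, against 6.81 in EBRTcH3, 6.63 in deltaMBD, 6.67 in Mbd3a, 6.35 in Mbd3b and 5.98 in Mbd3c. The rise was 11.0-fold (3.46 ± 0.18 SE, adjusted p = 2.99e-06), and its relative Pramel30 rose by 3.25. Genes of this family are close copies, so the array may not separate them. Sohlh2, a helix-loop-helix factor gene of young germ cells, read 9.98 in Empty, 9.95 in deltaCC and 9.99 in deltaMBD&CC, against 7.36 in EBRTcH3, 6.86 in deltaMBD, 6.59 in Mbd3a, 6.19 in Mbd3b and 6.63 in Mbd3c. The lacking lines had an SD of 0.02 and the retaining lines of 0.43, and the rise was 9.5-fold (3.25 ± 0.21 SE, adjusted p = 1.05e-05). Nlrp4f, an oocyte gene of the NLR family, rose by 2.46 ± 0.17 SE.

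The other large rises had varied roles. Slc38a5, which carries glutamine and related amino acids, read 8.04 in Empty, 8.45 in deltaCC and 8.40 in deltaMBD&CC, against 4.9 in EBRTcH3, 4.85 in deltaMBD, 4.84 in Mbd3a, 4.91 in Mbd3b and 4.71 in Mbd3c. The 11.0-fold rise (3.45 ± 0.11 SE, adjusted p = 1.19e-07) stood over an SD of 0.08 in the retaining and 0.22 in the lacking lines. Srgn, the core protein gene of the proteoglycan serglycin, rose by 3.16 ± 0.29 SE (8.93-fold), and read 8.45 in Empty and 9.92 in deltaMBD&CC. The glutathione peroxidase gene Gpx2 rose by 2.96 ± 0.27 SE and its pseudogene Gpx2-ps1 by 2.44. A pseudogene can share sequence with its parent, so the value of Gpx2-ps1 is uncertain. Ccdc152 rose by 2.78, the secreted protease gene Htra1 by 2.73, the glycan-branching enzyme gene Gcnt4 by 2.53 and Entpd1, the ectonucleotidase CD39, by 2.47.

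Among these genes the largest fall was in a cholesterol exporter, while the snoRNA gene Gm24564, for example, fell further (-2.46). Abca1, which moves cholesterol out of the cell, read 6.97 in Empty, 6.37 in deltaCC and 6.16 in deltaMBD&CC, against 9.01 in EBRTcH3, 7.81 in deltaMBD, 9.01 in Mbd3a, 9.37 in Mbd3b and 9.35 in Mbd3c. The deltaMBD line lay between the other retaining lines and the lacking lines, and the fall was 5.31-fold (-2.41 ± 0.32 SE, adjusted p = 0.000755). Sycp3, a synaptonemal complex gene of meiosis, read 7.80 in Empty, 6.95 in deltaCC and 6.90 in deltaMBD&CC, against 9.77 in EBRTcH3, 9.46 in deltaMBD, 9.57 in Mbd3a, 8.99 in Mbd3b and 9.57 in Mbd3c. It fell 4.77-fold (-2.26 ± 0.22 SE, adjusted p = 0.000127) with no overlap. Pax6, which directs eye and forebrain development, read 5.15 in Empty, 5.42 in deltaCC and 5.46 in deltaMBD&CC, against 7.64 in EBRTcH3, 7.42 in deltaMBD, 7.56 in Mbd3a, 7.83 in Mbd3b and 7.32 in Mbd3c. The gap between the classes was wide against the spread within them, and the fall was 4.63-fold (-2.21 ± 0.13 SE, adjusted p = 6.32e-06).

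The further falls among the 12 had varied roles. Glod5, a glyoxalase domain gene, fell (-2.28), as did Hmgn5, which encodes a nucleosome-binding protein (-2.11), Cnppd1 (-2.07), the potassium channel gene Kcnt2 (-2.05) and the glutathione transferase gene Gstm2 (-1.99). Ifitm3, an antiviral membrane protein gene, differed by -1.92, the polycomb-group gene Sfmbt2 by -1.87, Niban1 by -1.85 and Id2 by -1.83. These 24 genes, 12 rises and 12 falls, passed in every fit that left out 1 line.

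**Figure D2:**
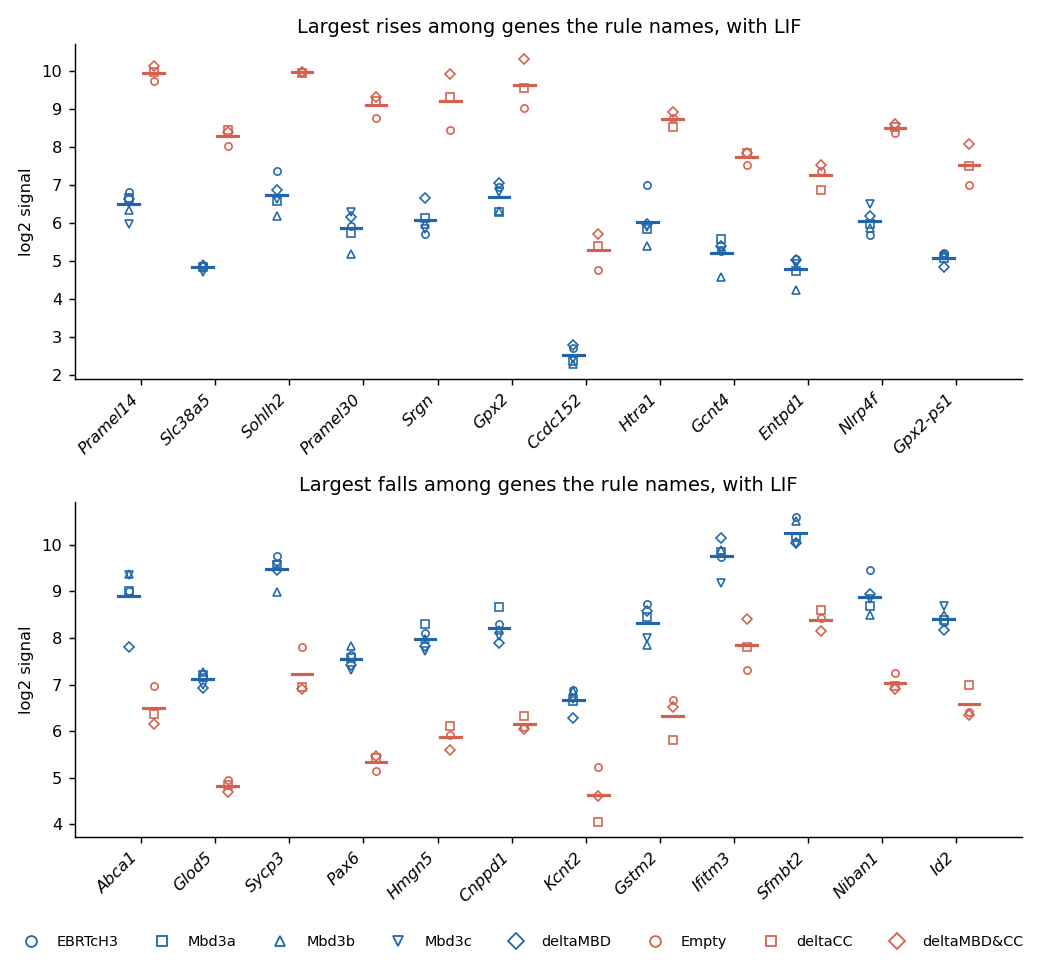
Log2 signal (vertical axis) of the 12 largest rises (above) and the 12 largest falls (below) with LIF among the genes the rule names, which leaves out predicted genes and small RNAs, by gene (horizontal axis). Blue symbols are the 5 retaining lines, red symbols the 3 lacking lines, 1 symbol per line as in the key, and bars are class means. The classes do not overlap in any of the 24 genes, which the choice of these genes required. For Abca1 the deltaMBD line, at 7.81, lies below the other retaining lines.

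The promoter windows of Pramel14 and Abca1, first of the named rises and falls, are shown as an example of windows that differ in CpG content. The windows of Slc38a5, a rise, and Sycp3, a fall, differ less, with 10 and 15 CG. They are from RefSeq (GRCm38.p6, 300 bases around the start of the gene, most of them before it), 5′ to 3′ on the strand of the gene, with each CG in capitals. Pramel14 lies on the minus strand at chr4:143994320-143994619, and its window has 2 CG. Abca1 lies on the minus strand at chr4:53159846-53160145, and its window has 26.
Pramel14: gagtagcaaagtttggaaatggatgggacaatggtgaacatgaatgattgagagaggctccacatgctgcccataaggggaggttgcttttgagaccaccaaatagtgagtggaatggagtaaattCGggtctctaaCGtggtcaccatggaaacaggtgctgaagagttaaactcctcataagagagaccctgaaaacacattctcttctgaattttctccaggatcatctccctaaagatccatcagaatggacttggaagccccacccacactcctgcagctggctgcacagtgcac
Abca1: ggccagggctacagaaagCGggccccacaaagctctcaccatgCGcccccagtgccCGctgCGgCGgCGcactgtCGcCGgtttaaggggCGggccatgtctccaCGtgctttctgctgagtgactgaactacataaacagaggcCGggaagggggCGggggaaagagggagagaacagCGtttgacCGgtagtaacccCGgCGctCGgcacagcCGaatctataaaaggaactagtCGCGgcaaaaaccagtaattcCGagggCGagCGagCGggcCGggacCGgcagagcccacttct
Over all genes with 1 such window the CG counts of rises and falls were alike in the median, 20 among 920 genes that rose, 20 among 827 that fell and 17 among 11707 tested. The motif TTCNNNGAA, the form STAT factors bind, reads the same on both strands. It was in 5.0% of the windows of genes that rose, 6.89% of those that fell and 7.06% of all tested. Among genes past 2-fold it was in 7.01% of 157 that rose and 10.3% of 116 that fell. Their median CG counts were 15 and 16.5, so the comparison with all genes tested depends on the threshold.

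Epithelial genes that passed all rose. Of 23 tested genes of cell junctions and keratins 12 rose and 0 fell, and the median difference of the list was 0.52, against 0.05 over all genes. With each array centred on its median 9 rose and 1 fell. Krt19, a keratin of simple epithelia, read 7.96 in Empty, 7.87 in deltaCC and 8.21 in deltaMBD&CC, against 6.79 in EBRTcH3, 6.59 in deltaMBD, 6.67 in Mbd3a, 5.92 in Mbd3b and 6.60 in Mbd3c. It rose 2.83-fold (1.5 ± 0.18 SE, adjusted p = 0.000421) with no overlap. Krt18 rose by 1.33 ± 0.27 SE, with its lowest lacking line (Empty, 8.05) just above its highest retaining line (EBRTcH3, 7.93), and its partner Krt8 by 1.03 ± 0.18 SE. Krt18 did not pass with the matched constructs as block (1.11). Cldn6, a tight junction gene, rose by 1.02, the adhesion gene Epcam by 0.80 ± 0.13 SE and Cdh1 (E-cadherin) by 0.53 ± 0.10 SE. Cdh1 ran from 10.96 to 11.18 in the retaining lines and from 11.53 to 11.72 in the lacking lines.

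Without LIF the epithelial list lay the other way, with 3 members higher, 14 lower and a median of -0.49. Krt19 differed there by -1.45, Krt18 by -2.67, Krt8 by -2.23 and Cdh1 by -0.44. The change of the class difference was -2.95 for Krt19, -4.0 for Krt18, -3.26 for Krt8 and -0.98 for Cdh1, and it passed for all 4.

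Genes of the mesenchymal state went both ways. Of 24 tested, 6 rose and 6 fell. Vim, the intermediate filament gene of mesenchymal cells, read 7.27 in Empty, 8.31 in deltaCC and 7.68 in deltaMBD&CC, against 9.52 in EBRTcH3, 8.92 in deltaMBD, 9.50 in Mbd3a, 9.91 in Mbd3b and 9.85 in Mbd3c. The fall was 3.45-fold (-1.79 ± 0.25 SE, adjusted p = 0.00106) and the classes did not overlap. The repressor genes Zeb1 (-1.65 ± 0.16 SE) and Snai1 (-0.57 ± 0.10 SE) and the N-cadherin gene Cdh2 (-0.83 ± 0.17 SE) fell too. The members that rose encode matrix, protease and cytoskeletal proteins, with differences of 0.37 to 1.28.

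Markers of other cell types were read beside these. In the feeder fibroblast list 2 of 9 rose (1 without EBRTcH3, Mbd3b, Mbd3c, deltaCC or deltaMBD&CC) and 0 fell, and 4 of the 11 on the array, Dcn and Lox among them, were not above the 40th percentile on any array with LIF. The mean log2 signal of the 11 ran from 4.69 to 4.99 in the retaining lines and from 4.99 to 5.27 in the lacking lines. Thy1, a surface glycoprotein gene, rose by 1.33 ± 0.12 SE, and Pdgfrb differed by 0.56 ± 0.16 SE, with overlapping classes and no call without EBRTcH3 (0.59), Mbd3b (0.52), Mbd3c (0.50), deltaCC (0.51) or deltaMBD&CC (0.44), with no filter (0.56), over all 16 arrays (0.56), with the title run as covariate (0.44), or with the matched constructs as block (0.42). Endothelial and blood markers gave 2 rises of 13 (0 without deltaCC, 1 without Mbd3a, Mbd3b or deltaMBD&CC), the VEGF receptor genes Kdr (0.64 ± 0.14 SE) and Flt1 (0.39 ± 0.11 SE). The mean log2 signal of the 15 such markers on the array was 5.40 to 5.55 in the retaining lines and 5.61 to 5.78 in the lacking lines. Kdr did not pass without deltaCC (0.54), over all 16 arrays (0.64), or with the matched constructs as block (0.50), nor Flt1 without EBRTcH3 (0.37), Mbd3a (0.39), Mbd3b (0.38), deltaCC (0.38) or deltaMBD&CC (0.32), with centred arrays (0.31), over all 16 arrays (0.39), with the title run as covariate (0.35), or with the matched constructs as block (0.43). The part of other cell types in the differences was not tested.

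The lists of the primed epiblast and of gastrulation mesoderm had more rises than falls among their few members that passed. In the primed and formative list 7 of 19 rose and 3 fell, Cdh2 (-0.83), Dusp6 (-0.60) and Epha4 (-0.77). Dnmt3a, the de novo DNA methyltransferase gene, read 9.78 in Empty, 10.54 in deltaCC and 10.07 in deltaMBD&CC, against 8.76 in EBRTcH3, 9.23 in deltaMBD, 9.04 in Mbd3a, 8.92 in Mbd3b and 9.21 in Mbd3c. It rose 2.14-fold (1.10 ± 0.17 SE, adjusted p = 0.00176), and the zinc finger gene Zic2 rose by 0.76 ± 0.15 SE, while Fgf5, the usual marker of the primed state, did not pass (0.47). Zic2 did not pass with the matched constructs as block (0.72). In the mesoderm list 4 of 18 rose (3 without deltaCC), Eomes, Lefty2, Hand1 and Kdr, and 0 fell. Eomes, a T-box factor gene of the primitive streak and trophoblast, read 8.71 in Empty, 8.49 in deltaCC and 8.91 in deltaMBD&CC, against 6.85 in EBRTcH3, 6.91 in deltaMBD, 6.68 in Mbd3a, 6.61 in Mbd3b and 7.00 in Mbd3c. It rose 3.71-fold (1.89 ± 0.13 SE, adjusted p = 1.66e-05) with no overlap.

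Trophectoderm, endoderm and neural lists were read in the same way. The trophectoderm list had 7 of 21 higher and 2 lower, and 4 of the 7 are keratin genes, while Cdx2 did not pass (0.04). In the primitive endoderm list 6 of 20 rose and 2 fell (4 without deltaMBD). The endocytic adaptor gene Dab2 rose by 1.33 ± 0.19 SE and the lineage factor gene Gata4 fell (-1.05 ± 0.15 SE), with Gata6 (0.15) and Sox17 (0.02) not past the threshold. In the neuroectoderm list 4 of 18 fell and 0 rose, with Sox1, an early neural plate factor gene, at -0.69 ± 0.09 SE beside Pax6.

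**Figure D3:**
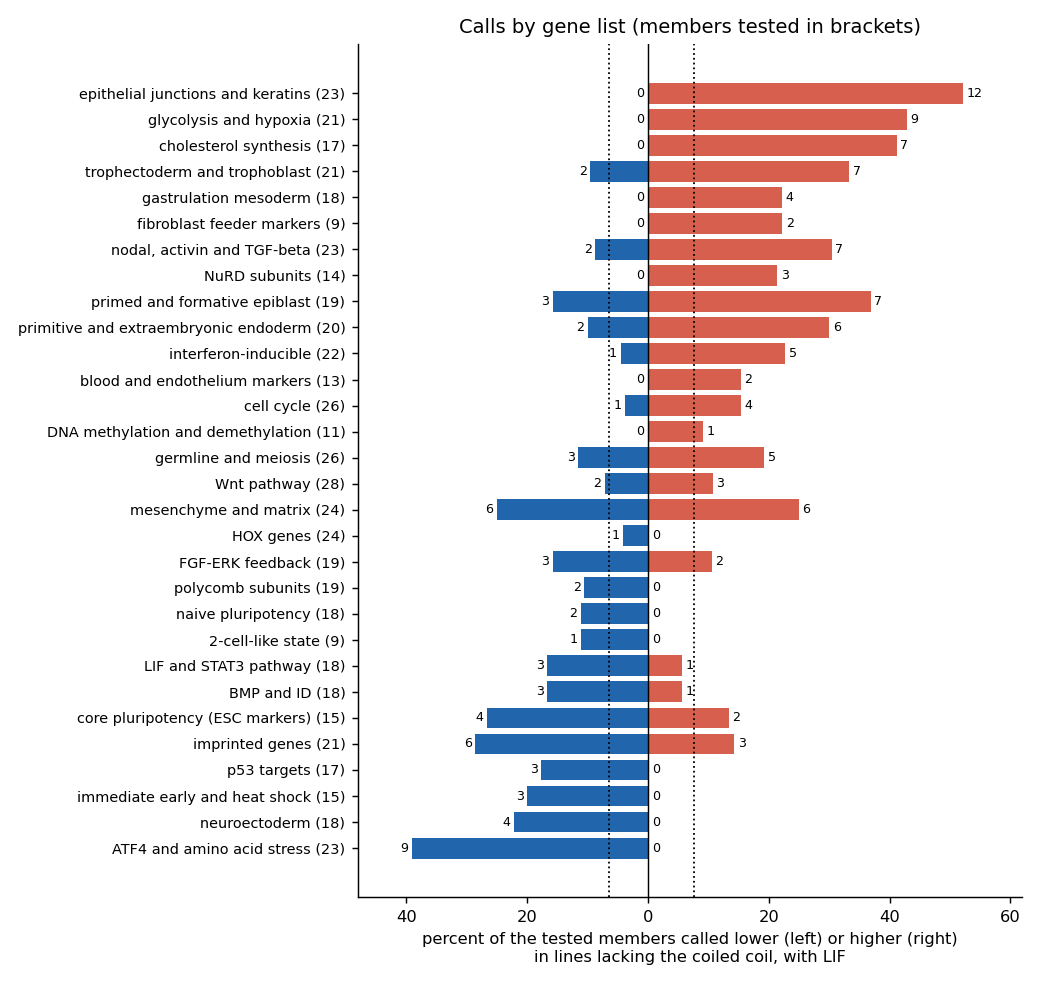
Percent of the tested members of each gene list (lists on the vertical axis, number tested in brackets) that passed lower (blue, left) or higher (red, right) in the lacking lines with LIF. Numbers at the bars are genes, and dotted lines mark the percent of all genes tested that passed, 6.48% lower and 7.65% higher. Epithelial genes lie at the top (12 of 23 higher) and the ATF4 list at the bottom (9 of 23 lower).

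Part of the TGF-beta superfamily moved. In the list of nodal, activin and TGF-beta genes 7 of 23 rose and 2 fell (1 without deltaCC or deltaMBD&CC), and Nodal itself did not pass (0.12). Lefty2, a secreted nodal inhibitor gene that nodal signalling switches on, read 10.09 in Empty, 10.30 in deltaCC and 10.30 in deltaMBD&CC, against 7.93 in EBRTcH3, 9.38 in deltaMBD, 8.57 in Mbd3a, 8.69 in Mbd3b and 9.57 in Mbd3c. The retaining lines spread widely (SD 0.66) below a tight lacking class (SD 0.12), and the rise was 2.64-fold (1.40 ± 0.30 SE, adjusted p = 0.011). Lefty2 did not pass with the title run as covariate (1.18). Smad3, which carries the signal to the nucleus, rose by 1.28 ± 0.18 SE, the inhibitor gene Smad7 by 1.01 ± 0.12 SE and Lefty1 by 1.11 ± 0.27 SE. Lefty1 did not pass without deltaCC (1.10) or deltaMBD&CC (1.08), or with the title run as covariate (0.86).

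On the BMP side 3 of 18 fell (1 without Empty or deltaMBD&CC) and 1 rose, the ligand gene Bmp4 (0.80 ± 0.12 SE). Among all genes tested 6.48% fell and 7.65% rose, and so few members do not set the list apart from that. Id2, an inhibitor of helix-loop-helix factors that BMP signals induce, read 6.41 in Empty, 7.00 in deltaCC and 6.34 in deltaMBD&CC, against 8.35 in EBRTcH3, 8.17 in deltaMBD, 8.38 in Mbd3a, 8.49 in Mbd3b and 8.69 in Mbd3c. Its fall was 3.56-fold (-1.83 ± 0.16 SE, adjusted p = 7.02e-05). Id1, of the same family, differed by -0.92 ± 0.22 SE and did not pass without Empty (-0.83) or deltaMBD&CC (-0.75), or with the title run as covariate (-0.88).

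In the Wnt list 3 of 28 rose (5 without EBRTcH3) and 2 fell (1 without EBRTcH3, Mbd3a, Mbd3b, deltaCC or deltaMBD&CC). Over all genes tested 7.65% rose and 6.48% fell, so the Wnt counts are near those shares. Porcn, the enzyme gene that lipidates Wnt proteins, rose by 1.43 ± 0.20 SE and the antagonist gene Sfrp1 by 0.86 ± 0.17 SE, while the target gene Axin2 did not pass (-0.15). In the list of FGF-ERK feedback 3 of 19 fell (1 without deltaCC, 5 without deltaMBD) and 2 rose (1 without Mbd3a, Empty or deltaMBD&CC). With so few members, this list is not set apart from the same shares. Fgf15, a growth factor gene, read 7.74 in Empty, 7.82 in deltaCC and 7.57 in deltaMBD&CC, against 5.72 in EBRTcH3, 6.94 in deltaMBD, 6.05 in Mbd3a, 6.03 in Mbd3b and 5.84 in Mbd3c. The deltaMBD line again lay between the other retaining lines and the lacking lines, and the rise was 3.02-fold (1.59 ± 0.23 SE, adjusted p = 0.0012). Egr1, an ERK-induced factor gene with overlapping classes, differed by -0.75 ± 0.21 SE and did not pass without Mbd3a (-0.76), Mbd3b (-0.68), Mbd3c (-0.65), deltaCC (-0.69) or deltaMBD&CC (-0.64), with the title run as covariate (-0.48), or with the matched constructs as block (-0.51).

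Of 22 interferon-inducible genes 5 rose and 1 fell (3 without deltaMBD&CC). Xaf1, a pro-apoptotic interferon target gene, read 9.95 in Empty, 9.87 in deltaCC and 10.22 in deltaMBD&CC, against 7.54 in EBRTcH3, 7.89 in deltaMBD, 7.98 in Mbd3a, 7.56 in Mbd3b and 7.75 in Mbd3c. It rose 4.82-fold (2.27 ± 0.13 SE), and the antiviral gene Rsad2 rose by 1.6 ± 0.19 SE, while Isg15 (0.25) and Ifit1 (0.23) did not pass.

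Glycolytic genes rose in part. In the list of glycolysis and hypoxia genes 9 of 21 rose (5 without deltaCC) and 0 fell (median 0.50). Pfkp, a phosphofructokinase gene, read 11.89 in Empty, 12.07 in deltaCC and 11.93 in deltaMBD&CC, against 10.89 in EBRTcH3, 10.98 in deltaMBD, 11.04 in Mbd3a, 11.04 in Mbd3b and 11.14 in Mbd3c. It rose 1.93-fold (0.95 ± 0.10 SE, adjusted p = 0.00018), and further down the pathway Pgk1 rose by 0.66 ± 0.14 SE, Pkm by 0.62 ± 0.12 SE and Ldha by 0.71 ± 0.15 SE. The glycolytic genes Gapdh (0.04), Tpi1 (-0.06) and Aldoa (0.24) did not pass, nor did the hypoxia targets Vegfa (-0.26) and Car9 (0.16). Ankrd37, a hypoxia target gene, differed by 1.25 ± 0.34 SE over a wide spread in the retaining lines (SD 0.74). Ldha did not pass without deltaCC (0.59), nor Ankrd37 without EBRTcH3 (1.04), Mbd3b (1.09), Mbd3c (1.23), deltaCC (1.14) or deltaMBD&CC (1.20), or with the title run as covariate (0.86).

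Cholesterol synthesis genes were highest in deltaCC. Of 17 tested, 7 rose (3 without Mbd3a, Mbd3b, Mbd3c or deltaCC, 4 without deltaMBD&CC) and 0 fell (median 0.39), and with each array centred on its median 4 rose. Fdft1, the squalene synthase gene, read 9.84 in Empty, 10.74 in deltaCC and 10.19 in deltaMBD&CC, against 9.11 in EBRTcH3, 9.48 in deltaMBD, 9.30 in Mbd3a, 9.22 in Mbd3b and 9.28 in Mbd3c. The rise was 1.97-fold (0.98 ± 0.17 SE, adjusted p = 0.00392). Fdps, the farnesyl diphosphate synthase gene, rose by 0.92 ± 0.18 SE. Fdps did not pass with the matched constructs as block (0.89). Dhcr7, whose product makes cholesterol from its last precursor, read 9.16 in deltaCC, 8.27 in deltaMBD&CC and 7.88 in Empty, over 7.49 to 7.78 in the retaining lines (0.76 ± 0.23 SE). It did not pass without EBRTcH3 (0.72), Mbd3a (0.78), Mbd3b (0.76), Mbd3c (0.77), deltaCC (0.40) or deltaMBD&CC (0.85), with no filter (0.76), with quantile normalization (0.76), with centred arrays (0.69), with the title run as covariate (0.55), or with the matched constructs as block (0.77). Hmgcs1, an early enzyme gene of the pathway, differed by 0.64 ± 0.19 SE and did not pass without Mbd3a (0.63), Mbd3b (0.65), Mbd3c (0.64), deltaMBD (0.58), deltaCC (0.36) or deltaMBD&CC (0.74), with no filter (0.64), with centred arrays (0.56), with the title run as covariate (0.61), or with the matched constructs as block (0.66).

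The ATF4 list had the largest share of falls, and deltaCC again moved most. ATF4 is the transcription factor of amino acid shortage and the integrated stress response. Of 23 tested genes 9 fell (6 without deltaCC, 15 without Empty, 6 with the title run as covariate) and 0 rose. The median was -0.55, and ran from -0.75 to -0.31 when 1 line was left out. Vldlr, a lipoprotein receptor gene, read 7.27 in Empty, 5.28 in deltaCC and 5.82 in deltaMBD&CC, against 7.74 in EBRTcH3, 7.80 in deltaMBD, 7.86 in Mbd3a, 8.02 in Mbd3b and 7.94 in Mbd3c. The lacking lines spread widely (SD 1.03) below a tight retaining class (SD 0.11), and the fall was 3.36-fold (-1.75 ± 0.33 SE, adjusted p = 0.00583). Aldh1l2, a mitochondrial folate enzyme gene, had the same order of lacking lines, at 7.50 in Empty, 6.46 in deltaMBD&CC and 5.63 in deltaCC, under 7.82 to 8.18 in the retaining lines. It fell by 1.53 on the log2 scale. The mTOR inhibitor gene Ddit4 differed by -1.25 ± 0.23 SE, the stress gene Nupr1 by -1.09 ± 0.25 SE and Atf4 itself by -0.61 ± 0.16 SE, while the targets Asns (-0.01) and Psat1 (0.09) did not pass. Atf4 did not pass without Mbd3a (-0.63), deltaCC (-0.44) or deltaMBD&CC (-0.66), or with the title run as covariate (-0.52), nor Nupr1 without deltaCC (-0.78) or deltaMBD&CC (-1.02), with the title run as covariate (-0.94), or with the matched constructs as block (-1.10).

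**Figure D4:**
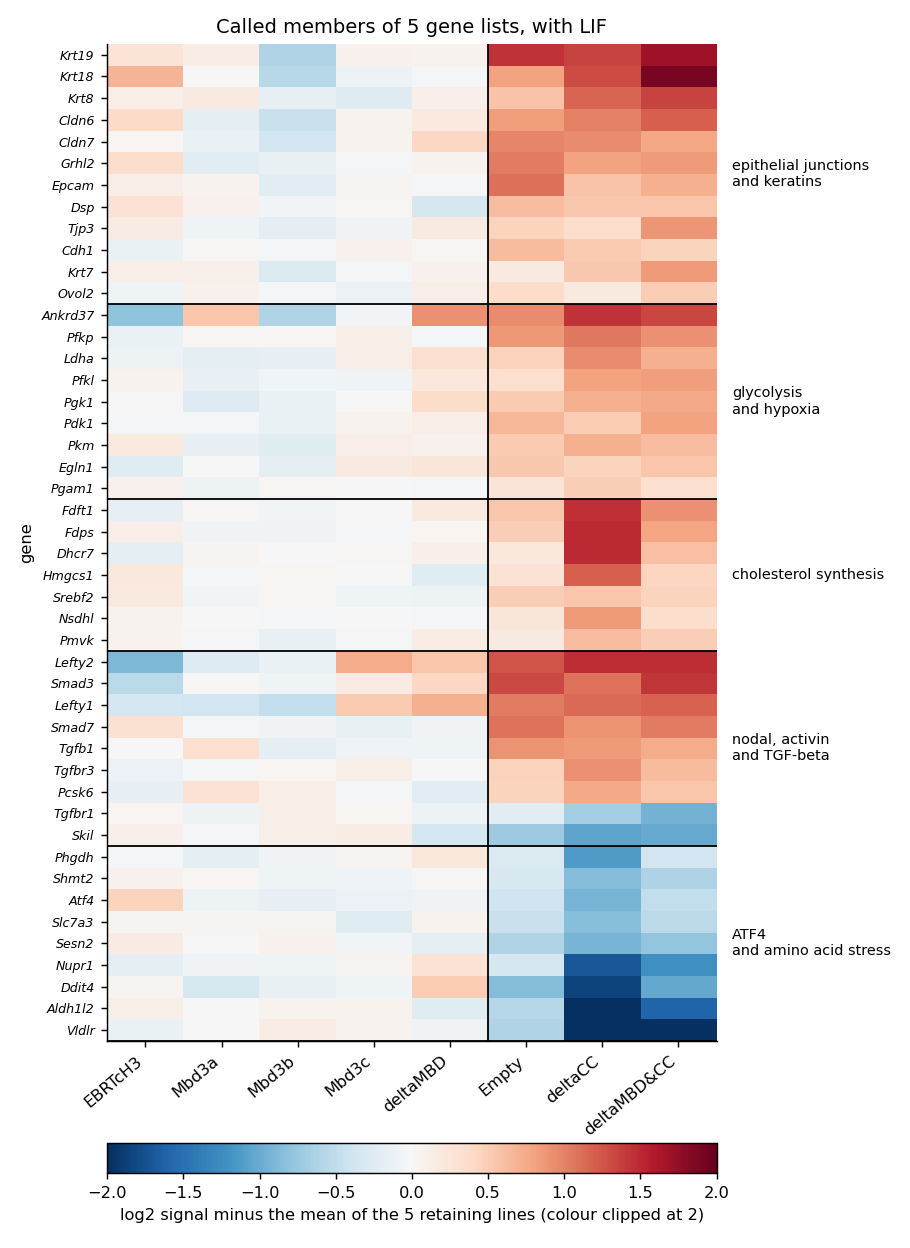
Log2 signal minus the mean of the 5 retaining lines (colour, red higher and blue lower, clipped at 2) for the 46 members that passed in 5 gene lists (rows), in each of the 8 lines (columns, retaining lines left of the vertical line). In the cholesterol and ATF4 lists the deltaCC column is strongest for Dhcr7 (9.16 in deltaCC, 7.88 in Empty) and Vldlr (5.28 in deltaCC, 7.27 in Empty). The epithelial genes are red in all 3 lacking lines.

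Of 14 NuRD genes 3 rose (1 without deltaCC or deltaMBD&CC) and 0 fell, among them Cdk2ap1 (0.60 ± 0.12 SE) and Mta3 (0.59 ± 0.15 SE). Mta3 did not pass without Mbd3a (0.60), Mbd3b (0.53), Mbd3c (0.52), Empty (0.60), deltaCC (0.64) or deltaMBD&CC (0.53), with the title run as covariate (0.57), or with the matched constructs as block (0.42). The deacetylase genes Hdac1 (0.06) and Hdac2 (-0.06) and the subunit genes Mta1 (0.12) and Mta2 (0.14) did not pass. In the polycomb list 2 of 19 fell (4 without deltaMBD), Sfmbt2 and Bmi1 (-1.08 ± 0.14 SE). In the HOX list 1 of 24 fell (0 without Mbd3a, deltaCC or deltaMBD&CC, 2 without Mbd3c), Hoxb9 (-0.56 ± 0.15 SE), which did not pass without Mbd3a (-0.51), deltaCC (-0.54) or deltaMBD&CC (-0.50), with the title run as covariate (-0.44), or with the matched constructs as block (-0.50). In the DNA methylation list 1 of 11 rose, Dnmt3a. Over all genes tested 7.65% rose and 6.48% fell. The polycomb, HOX and DNA methylation counts are near those shares.

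Of 26 cell cycle genes 4 rose and 1 fell (0 without EBRTcH3, Mbd3a, Mbd3b, deltaCC or deltaMBD&CC, 2 without Empty or deltaMBD), with the inhibitor gene Cdkn2a at 1.10 ± 0.14 SE and the cyclin gene Ccne1 at 0.78 ± 0.13 SE. The shares over all genes tested were 7.65% higher and 6.48% lower, and the counts were not tested against them. Of 17 p53 targets 3 fell (6 without deltaMBD), among them the DNA polymerase gene Polk (-1.18 ± 0.15 SE) and the stress gene Sesn2 (-0.77 ± 0.11 SE), while Cdkn1a did not pass (-0.04). Of 15 immediate early and heat shock genes 3 fell, among them the chaperone genes Hsph1 (-0.82 ± 0.15 SE) and Hspa1a (-0.86 ± 0.20 SE). Hspa1a did not pass without Empty (-0.76), with the title run as covariate (-0.72), or with the matched constructs as block (-0.70).

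Germ line genes went both ways, with 5 of 26 higher and 3 lower. Beside Sohlh2 and Nlrp4f, the RNA-binding protein gene Dazl rose by 1.01 ± 0.19 SE, and beside Sycp3 the X-linked homeobox gene Rhox5 fell (-1.33 ± 0.21 SE). The germ cell genes Ddx4 (-0.62) and Stra8 (0.23) did not pass. Of 9 genes of the 2-cell-like state 1 fell (0 without Mbd3a, Mbd3b, Mbd3c or deltaMBD&CC, 2 without deltaCC), the repressor gene Zfp809 (-0.46 ± 0.12 SE), which did not pass without Mbd3a (-0.47), Mbd3b (-0.47), Mbd3c (-0.46), deltaCC (-0.46) or deltaMBD&CC (-0.42), with the title run as covariate (-0.38), or with the matched constructs as block (-0.49). That 1 fall among 9 genes does not set the list apart from the 6.48% that fell among all genes tested.

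Imprinted genes also went both ways, 3 of 21 higher and 6 lower. Igf2, the paternally expressed growth factor gene, read 7.21 in Empty, 8.20 in deltaCC and 8.14 in deltaMBD&CC, against 6.63 in EBRTcH3, 6.16 in deltaMBD, 6.29 in Mbd3a, 6.41 in Mbd3b and 6.79 in Mbd3c. It rose 2.63-fold (1.39 ± 0.22 SE, adjusted p = 0.0021), and without LIF it was lower in the lacking lines (-2.53), a change of -3.93. Plagl1, a paternally expressed zinc finger gene, rose by 1.25 ± 0.17 SE. Peg3, another paternally expressed zinc finger gene, read 7.20 in Empty, 7.18 in deltaCC and 6.32 in deltaMBD&CC, against 8.54 in EBRTcH3, 7.73 in deltaMBD, 8.38 in Mbd3a, 8.46 in Mbd3b and 8.23 in Mbd3c. The fall was 2.58-fold (-1.37 ± 0.23 SE, adjusted p = 0.00263), and Peg3 was lower without LIF too (-2.23).

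MicroRNA genes that passed were nearly all lower, most of them inside Sfmbt2. Of 360 tested 50 fell and 1 rose, and 36 of the 50 lie inside Sfmbt2, a gene that holds a large cluster of repeated microRNA genes and fell itself. Of 55 tested there 36 fell and 0 rose, with a median of -0.68. These copies are nearly alike, since the 55 have 34 distinct profiles over the arrays and the 36 that fell have 15. Some of the falls were near the floor. Mir669a-10 and the copies that share its profile ran from 3.82 to 4.33 in the retaining and 3.26 to 3.43 in the lacking lines. That is below the 40th percentile of each array with LIF (4.24 to 4.38 over the arrays), so they passed the filter only through arrays without LIF. Mir669k read 4.61 in Empty, 4.26 in deltaCC and 4.07 in deltaMBD&CC, against 6.17 in EBRTcH3, 6.40 in deltaMBD, 6.23 in Mbd3a, 7.02 in Mbd3b and 6.67 in Mbd3c. It fell 4.55-fold (-2.18 ± 0.19 SE), and without LIF it did not pass (0.12), where the median of the 55 was 0.21. Outside Sfmbt2, 14 of 305 fell and 1 rose, while among all genes tested 6.48% fell and 7.65% rose. The counts outside Sfmbt2 therefore show no excess of falls.

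A cluster of the X chromosome, of a microRNA family known for promoting proliferation, fell in 4 of 5 tested members. The mature forms are printed to show that the cluster spans several seed families (RefSeq, GRCm38.p6, 5′ to 3′, with the seed, bases 2 to 8, in capitals).
mmu-miR-363-3p: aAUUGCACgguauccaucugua
mmu-miR-92a-3p: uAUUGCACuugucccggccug
mmu-miR-19b-3p: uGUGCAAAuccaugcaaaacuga
mmu-miR-20b-5p: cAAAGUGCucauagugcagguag
mmu-miR-18b-5p: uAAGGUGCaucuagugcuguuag
The first pair of forms share a seed, and each of the other 3 has its own. On the minus strand, mmu-miR-363-3p lies at chrX:52741697-52741718 and mmu-miR-18b-5p at chrX:52742381-52742403. Mir363 read 5.23 in Empty, 4.95 in deltaCC and 4.89 in deltaMBD&CC, against 6.28 in EBRTcH3, 6.19 in deltaMBD, 6.22 in Mbd3a, 6.23 in Mbd3b and 6.52 in Mbd3c. It fell 2.4-fold (-1.26 ± 0.12 SE, adjusted p = 8.84e-05) with no overlap, and Mir19b-2 (-1.21 ± 0.18 SE), Mir20b (-1.05 ± 0.22 SE) and Mir18b (-0.93 ± 0.17 SE) fell as well. Mir92-2 did not pass (-0.35 ± 0.11 SE, adjusted p = 0.0635), though its classes did not overlap. The array reads the precursor or its host RNA, so the levels of the printed molecules were not measured.

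Mir34a, a microRNA gene that p53 induces, fell by 1.52 log2 (SE 0.31). It lies on chromosome 4, and its mature form is printed because its seed differs from those of the X cluster.
mmu-miR-34a-5p: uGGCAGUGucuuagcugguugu

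The class differences with LIF were in part those seen after LIF withdrawal. Of the 3233 genes that passed with LIF, 1170 passed in the same direction without it, 36.2% of the calls with LIF and 24.4% of the 4791 calls without, and 240 passed in the opposite direction. The count without LIF was 3014 without deltaMBD&CC. The arrays differ but the lines are the same, so both comparisons share any feature of a line. Pramel14 (3.74 without LIF), Sohlh2 (3.69), Srgn (3.19), Gpx2 (3.02), Xaf1 (2.40), Cnppd1 (-1.77), Vim (-1.72) and Ifitm3 (-2.27) passed in both conditions. Slc38a5 was 3.45 with LIF and 1.00 without, a change of -2.45 (adjusted p = 0.000123). Gcnt4 did not pass without LIF (0.50, a change of -2.03), nor did Abca1 (-0.17, a change of 2.24) or Zeb1 (0.40, a change of 2.05). Among the 97 named genes besides Nanog that passed with LIF, the change between conditions passed in 54.

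**Figure D5:**
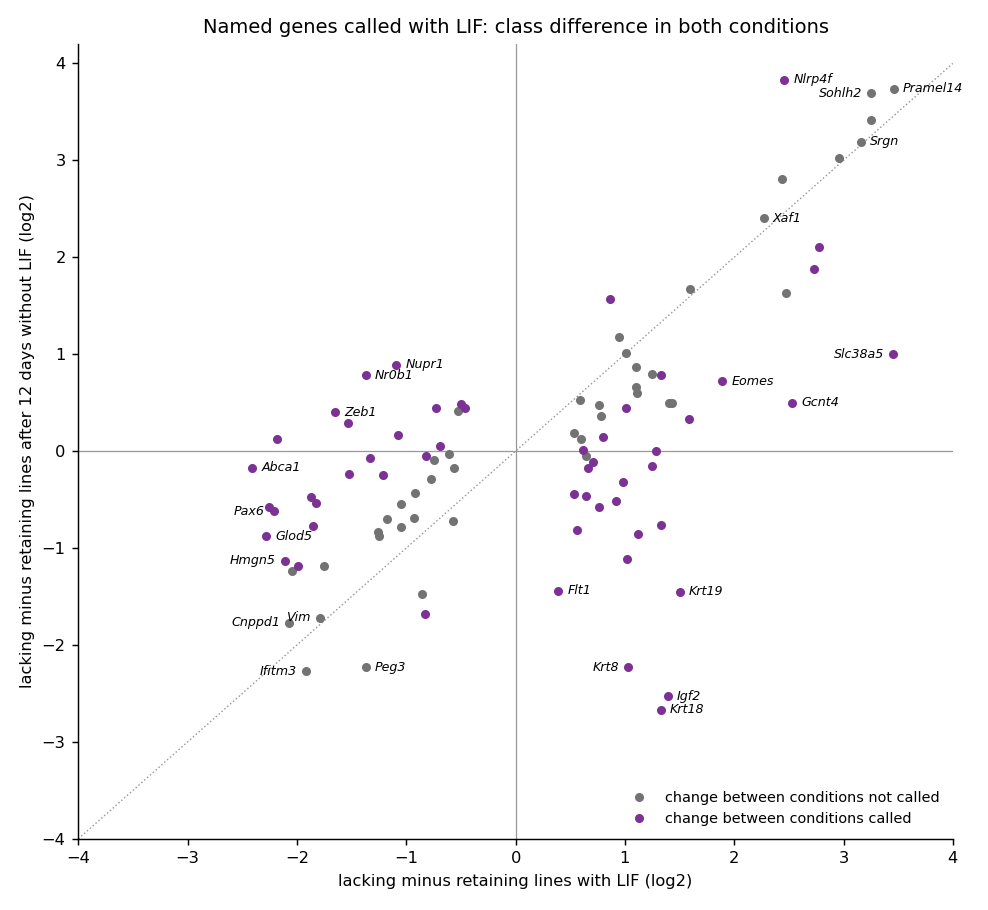
Difference between the classes (lacking minus retaining, log2) with LIF (horizontal axis) and after 12 days without LIF (vertical axis) for 97 named genes that passed with LIF. Each point is a gene, purple where the change between the conditions passed (54 genes) and grey where it did not, and the dotted line marks equal differences. Sohlh2 (3.25 and 3.69) lies near the line, and Krt18 (1.33 and -2.67) and Igf2 (1.39 and -2.53) lie in a quadrant of opposite signs.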

How the data were processed

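Total RNA of 8 ESC lines, with LIF and after 12 days without it, was hybridised to 1 Affymetrix array each. The log2 values deposited by the authors came from RMA (affy), as the submitters' processing notes state (versions not given in the sources used here). Probe sets with 1 gene symbol were kept, symbols were updated through Entrez numbers, and the probe set with the highest mean signal stood for a gene, giving 30102 genes. Of these, 22872 exceeded the 40th percentile on 3 or more of the 16 arrays and were tested with limma 3.58.1 (R 4.3.3) on the log2 values, lacking minus retaining lines, with Benjamini-Hochberg adjustment over all of them. The same fit was made on the 8 arrays without LIF and on the difference of the 2 arrays of each line. The scripts were tested on simulated data. The number of arrays limits the precision.

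Genes were named by rule: Mbd3, 6 ESC markers, the 12 largest rises and 12 largest falls with no overlap between the classes (leaving out predicted genes, clones, small RNAs and receptor families), and up to 2 members that passed from each of 30 lists. Another 30 genes with full statistics, members named as not past the threshold and the microRNA and snoRNA genes were named after their values were seen. The members and lists were chosen with earlier results of these data known. Lists are described by counts and medians, with no test. Alternatives covered the filter, normalization, probe set, variance prior, array weights, title runs, matched constructs, the MBD3a constructs alone, all 16 arrays, and leaving out each line.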

Additional observations from a re-analysis of the deposited data

Results flagged for a closer look

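In 8 of 107 named genes, 1 of the 5 retaining lines stood apart from the other 4 with LIF, and chance alone sets about 1 in 20 such groups apart. The line was deltaMBD in 3 genes, EBRTcH3 in 3, Mbd3b in 1 and Mbd3c in 1. Abca1 read 7.81 in deltaMBD against 9.01 to 9.37 in the other retaining lines. Ier3 read 5.74 in EBRTcH3 against 5.17 to 5.28 in the other retaining lines. Fgf15 read 6.94 in deltaMBD against 5.72 to 6.05 in the other retaining lines. Krt19 read 5.92 in Mbd3b against 6.59 to 6.79 in the other retaining lines. Mir363 read 6.52 in Mbd3c against 6.19 to 6.28 in the other retaining lines. Atf4 read 10.87 in EBRTcH3 against 10.27 to 10.36 in the other retaining lines. Smad7 read 8.52 in EBRTcH3 against 8.07 to 8.19 in the other retaining lines. Cdh2 read 6.37 in deltaMBD against 6.90 to 7.09 in the other retaining lines.

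In 60 of the 107 named genes the difference between the classes changed with LIF withdrawal (limma on the per-line differences, adjusted p under 0.05 over all genes tested, against 12.1% of all genes tested), and 11 of them passed in opposite directions in the 2 conditions. Many of these genes were chosen by their difference with LIF, which enters the change, so the share is a description. Values are the difference without LIF minus that with LIF, on the log2 scale. In 31 genes the change was above 0. It was largest in Mir669k (2.31), Abca1 (2.24), Nr0b1 (2.16), Zeb1 (2.05), Nupr1 (1.98), Aldh1l2 (1.83), Sycp3 (1.67) and Pax6 (1.59). Next came Glod5 (1.40), Sfmbt2 (1.39), Nlrp4f (1.37), Id2 (1.29), Mir34a (1.28), Rhox5 (1.27), Bmi1 (1.25) and Esrrb (1.18). Then followed Socs2 (1.17), Prdm14 (1.11), Niban1 (1.08), Hmgn5 (0.99), Nr5a2 (0.99), Mir19b-2 (0.96), Zfp42 (0.92) and Zfp809 (0.90). It was smallest in Nanog (0.85), Gstm2 (0.80), Hsph1 (0.77), Sox1 (0.73), Sfrp1 (0.71), Klf4 (0.70) and Tbx3 (0.69). In 29 genes the change was below 0. The most negative values were those of Krt18 (-4.0), Igf2 (-3.93), Krt8 (-3.26), Krt19 (-2.95), Slc38a5 (-2.45), Cldn6 (-2.13), Dab2 (-2.09) and Gcnt4 (-2.03). After these came Ier3 (-1.97), Flt1 (-1.83), Fdps (-1.44), Ankrd37 (-1.39), Pdgfrb (-1.38), Dhcr7 (-1.34), Fdft1 (-1.30) and Smad3 (-1.28). Smaller changes were those of Fgf15 (-1.26), Eomes (-1.18), Hmgcs1 (-1.10), Cdh1 (-0.98), Cdh2 (-0.85), Htra1 (-0.85), Pgk1 (-0.84) and Ldha (-0.81). The smallest were those of Ccdc152 (-0.67), Epcam (-0.65), Pkm (-0.61), Smad7 (-0.57) and Thy1 (-0.54).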

How the results depend on the processing

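None of the named genes that passed reversed under the settings tried, but the balance of all calls with LIF did, from 1750 higher and 1483 lower to 1310 and 1916 with centred arrays and to 933 and 1077 with the matched constructs as block. With LIF, 3233 genes passed, 5373 with array weights, 2010 with the matched constructs as block, 865 over the 4 MBD3a constructs, 679 within the first title run and 0 within the second (limma, with 3240 at an unadjusted p under 0.05). Of the 3233, 621 passed within the first run and 1826 with the block. The other settings that kept all lines gave 2343 to 4471. The lowest count was with the title run as covariate, where 2112 of the 3233 passed. In that fit 9 epithelial, 6 glycolysis and hypoxia, 3 cholesterol synthesis and 3 germ line genes rose, and 7 of the primed list still rose. Leaving out 1 line gave 1779 to 3866 genes with LIF, 3014 to 5433 without LIF (4791 over all lines) and 1353 to 3914 for the change between conditions (2759 over all lines). Matched constructs served as a block, with Empty set against EBRTcH3, a pair that differs in more than the coiled coil. No paired analysis was possible because the replicate numbers only name the lines, so none was made by number. Of 98 named genes that passed, 79 passed in every fit that left out 1 line, 81 with the title run as covariate, 83 with the matched constructs as block and 94 with each array centred on its median. The causes were not tested. The number of lines, 3 against 5 with 1 array each, limits what can be detected, and probes of repeated genes cannot be told apart.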
